A study of Mus musculus with 8 samples.

Results

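The Hes and Hey genes, the transcriptional repressors that Notch signaling is best known for switching on, were followed in islets of mice with forced β cell Notch activity. Their 9 members (Hes1, Hes2, Hes3, Hes5, Hes6, Hes7, Hey1, Hey2 and Heyl) were taken by symbol from the 32531 genes of the count table. Islets came from 4 controls (RIP-Cre+, Rosa26-rtTA+, tetO_NICD-) and 4 β-tetO-NICD mice (RIP-Cre+, Rosa26-rtTA+, tetO_NICD+), all kept on doxycycline (Dox) for 8 weeks and on a mixed C57BL/6J, 129X1/SvJ and BALB/c background. Controls therefore also carried Cre and the reverse tetracycline transactivator (rtTA) and also received Dox, and differed by the absence of the tetO_NICD transgene. Cre was driven by the insulin 2 promoter, so the transgene, which encodes the Notch1 intracellular domain (NICD), was aimed at β cells, whereas RNA was extracted from whole islets with their other endocrine, vascular and immune cells. Dox was started at weaning or in older mice in different experiments of the study, and neither the labels nor the RNA-Seq methods say which applies to these libraries. Count columns of the β-tetO-NICD group carried the numbers 1, 2, 4 and 5, while the labels number these mice 1 to 4, so libraries 4 and 5 were used as members of their group without being tied to one mouse.

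A Notch receptor that meets its ligand is cut, and the freed NICD enters the nucleus, where it binds the DNA-binding protein RBPJ and a Mastermind coactivator and turns on genes next to RBPJ sites. Hes and Hey genes are the classical genes of this kind, and their products are basic helix-loop-helix (bHLH) proteins with an Orange domain that bind DNA in pairs and hold target genes down, with Groucho/TLE corepressors in the case of Hes proteins. In the embryonic pancreas, Notch acting through Hes1 restrains Neurog3, the factor that commits progenitors to an endocrine fate.

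The promoter set used here covered 4 of the 9 members (Hes5, Hes6, Hes7 and Hey2, from RefSeq on GRCm38.p6). It lacked Hes1, Hes2, Hes3, Hey1 and Heyl, so Hes5 was the only member that rose with a window. The 3 members that held a consensus RBPJ site are printed. Each sequence gives the 250 bases upstream of the transcription start on the strand of the gene, 5′ to 3′, and capitals mark GTGGGAA or, where the site lies on the opposite strand, TTCCCAC.
Hes5: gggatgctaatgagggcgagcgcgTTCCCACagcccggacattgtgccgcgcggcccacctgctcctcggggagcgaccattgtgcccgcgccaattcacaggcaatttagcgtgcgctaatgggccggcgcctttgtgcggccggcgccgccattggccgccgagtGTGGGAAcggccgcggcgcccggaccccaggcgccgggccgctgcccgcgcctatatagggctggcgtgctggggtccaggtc
Hey2: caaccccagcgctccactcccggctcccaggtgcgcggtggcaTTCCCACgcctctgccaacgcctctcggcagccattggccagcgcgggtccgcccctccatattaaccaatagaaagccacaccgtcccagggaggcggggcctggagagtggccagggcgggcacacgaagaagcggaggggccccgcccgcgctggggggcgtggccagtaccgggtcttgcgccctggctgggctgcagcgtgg
Hes7: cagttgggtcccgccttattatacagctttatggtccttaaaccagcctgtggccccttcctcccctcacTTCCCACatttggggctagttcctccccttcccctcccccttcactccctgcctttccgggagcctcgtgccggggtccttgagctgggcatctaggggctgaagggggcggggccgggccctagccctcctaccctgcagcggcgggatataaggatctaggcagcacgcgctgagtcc
These windows are chr4:154960673-154960922 on the plus strand for Hes5, chr10:30842784-30843033 on the minus strand for Hey2 and chr11:69120203-69120452 on the plus strand for Hes7. Hes5 held 2 matches facing opposite ways, at 226 to 220 and at 83 to 77 bases before the start, with 136 bases between them. Hey2 held 1 match, 207 to 201 bases before its start. Hes7 also held 1 match, at 180 to 174 bases. Of 32851 promoter windows of this length in the table, 5.42% held GTGGGAA on either strand, 0.161% held it at least 2 times, and 0.0548% held it on both strands. Neither of the 2 Hes6 start sites had a match. The N box CACNAG, a sequence bound by Hes proteins, was found on either strand once in the Hes7 window and once in 1 of the 2 Hes6 windows, and in 36.7% of all windows. Of other genes described below, Nrarp, L3mbtl3, Id2, Id3 and Neurog3 rose and held no GTGGGAA, whereas Pparg fell and held 1 match in 1 of its windows. A match describes these letters only and is not evidence of binding. Whether matches go with a rise was not tested.

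Libraries held 22430941 to 25950164 counts in controls (median 22925105) and 21701223 to 26413146 in β-tetO-NICD islets (median 23000680). Expression is given as CPM, counts relative to library size, with libraries scaled by the TMM method, and a floor of 3 counts corresponded to 0.119 to 0.138 CPM in controls and 0.0996 to 0.151 CPM in β-tetO-NICD libraries. That floor and the Poisson intervals given for scarce genes cover counting error only. Some libraries did not sort by genotype. The Spearman correlation of each library's deviation from the 8-library mean with transcript length, across 14631 genes, was positive in controls 1, 2 and 4 (0.418, 0.467 and 0.498) and negative in β-tetO-NICD libraries 2, 4 and 5 (-0.522, -0.355 and -0.516). Control 3 (-0.171) and β-tetO-NICD library 1 (0.443) went the other way from the rest of their group. Y-linked Eif2s3y had at most 1 count in 5 of the 8 libraries and at least 1300 in the remaining ones (controls 2 and 4, β-tetO-NICD library 5), although the methods of the study give males for gene expression. Fits that leave out or adjust for these libraries are given beside the results.

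Notch1, which checks the labels, stood at 65.0, 57.5, 41.6 and 63.4 CPM in the control libraries, as against 1008, 1322, 1216 and 574 CPM in libraries 1, 2, 4 and 5 of the β-tetO-NICD group. Its log2 fold change was 4.18 (SE 0.30, edgeR quasi-likelihood test, Benjamini-Hochberg adjusted p = 0.000102). Transgenic and endogenous Notch1 reads share one row and could not be separated. Every library therefore matched its label, and library 5 had the lowest Notch1 level of its group.

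Of the 9 members, 4 rose in β-tetO-NICD islets (Hes1, Hes5, Hey1 and Heyl), 3 did not pass the test (Hes6, Hes7 and Hey2) and 2 were too scarce to be tested (Hes2 and Hes3). None of the 7 tested members fell. Across the table, 4.19% of the 15082 tested genes rose and 2.57% fell (6.76% in all), against 4 of the 7 tested members. These same 4 members were those whose groups did not overlap, with every β-tetO-NICD library above every control, as was the case for 8.22% of tested genes (all β-tetO-NICD libraries were below all controls for another 7.92%, 16.1% in both directions). The median log2 fold change of the 7 tested members was 2.61, beside 0.00071 over all tested genes. Hes5, with at most 1 count per control, met the count filter only through its β-tetO-NICD libraries. Its rise was thus set by the filter, although it counts in the tally, the separation of groups and the median. With 10 counts required in every library, Hes5 was not tested and 3 members were called. In RNA from whole islets, a change in the number of cells that express a gene and a change in RNA per cell cannot be told apart.

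**Figure D1:**
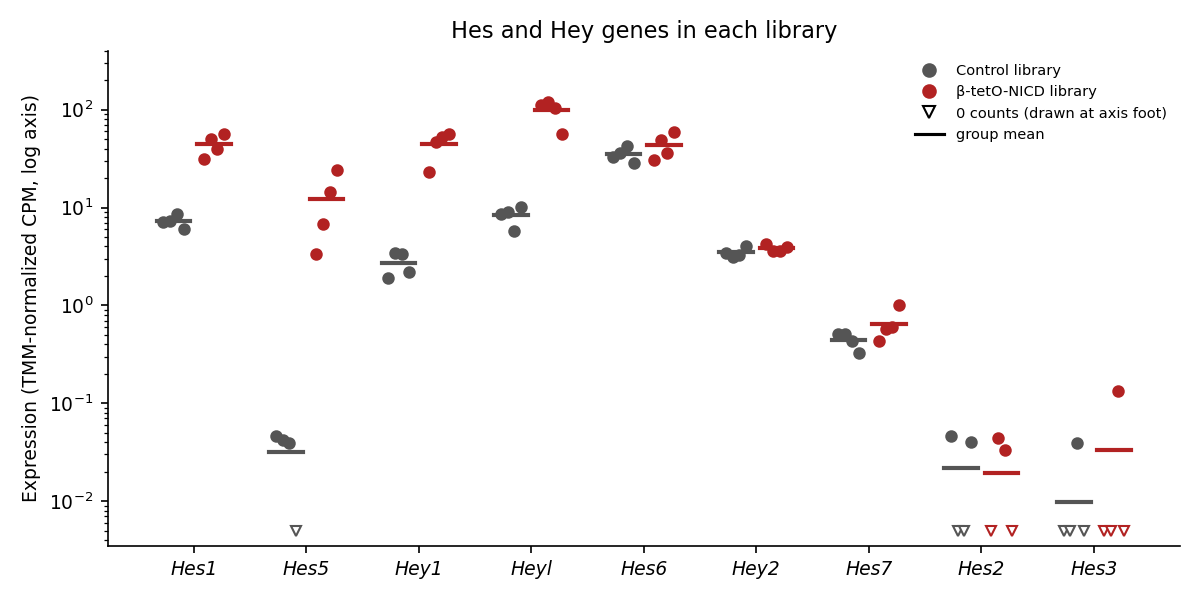
Expression of the 9 Hes and Hey genes in each library (TMM-normalized CPM, log axis); gray points are controls, red points are β-tetO-NICD libraries, bars are group means and open triangles mark libraries with 0 counts. Hes1, Hes5, Hey1 and Heyl have separate groups (for Hes1, 6.01 to 8.51 against 31.6 to 55.8 CPM), while those of Hes6, Hey2 and Hes7 overlap.

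Hes1, the repressor through which Notch restrains endocrine differentiation in the pancreas (chromosome 16, 30064384 to 30067796, plus strand; positions are GENCODE M21 on GRCm38), was readily detected in control islets, at 7.10, 7.35, 8.51 and 6.01 CPM. It reached 31.6, 49.6, 40.0 and 55.8 CPM in the β-tetO-NICD group (libraries 1, 2, 4 and 5). The lowest of these was well above the highest control. Means were 7.24 ± 1.03 (SD, n = 4) and 44.3 ± 10.6 CPM (SD, n = 4), a 6.11-fold rise (log2 fold change 2.61, SE 0.21, 95% confidence interval 2.14 to 3.08, edgeR adjusted p = 0.000140). Of the 4 members that rose, Hes1 had the smallest fold change, and among all tested genes it ranked 111 by log2 fold change.

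Hes5, a Notch target best known from neural progenitors (chromosome 4, 154960923 to 154962371, plus strand), was at the edge of detection in controls, with 1, 1, 1 and 0 counts. β-tetO-NICD libraries held 71, 154, 429 and 479 counts, or 3.37, 6.72, 14.2 and 24.1 CPM. Hes5 was thus under the floor in every control and clearly detected in every β-tetO-NICD library. The β-tetO-NICD mean of 12.1 ± 9.21 CPM (SD, n = 4) was at least 95.9-fold higher than the control mean taken at the floor of 3 counts in each library. Even library 1, the lowest, lay at least 24.4-fold above that floor. The edgeR adjusted p was 0.000661, and Hes5 ranked 2 among all tested genes by fitted log2 fold change, although a fitted value against so few counts depends on the prior count. Hes5 met the filter of 10 counts in 4 libraries only through the β-tetO-NICD group, so this p value and rank are not independent of how it was kept. Of the 4 members that rose, Hes5 differed most between β-tetO-NICD libraries, with a coefficient of variation of 76.0%, compared with 24.0% for Hes1, 34.0% for Hey1 and 28.9% for Heyl. The annotated antisense transcript Gm20421 overlaps Hes5 and has no row in the table, and the sources used here do not say whether counting used the strand.

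Hey1, a Hey repressor known from vascular and bone development (chromosome 3, 8663359 to 8667256, minus strand), was low in controls at 1.89, 3.46, 3.32 and 2.19 CPM. Libraries 1, 2, 4 and 5 of the β-tetO-NICD group had 22.8, 46.9, 52.8 and 56.9 CPM. As for Hes1 and Hes5, library 1 was the lowest of its group. The group means of 2.72 ± 0.79 and 44.8 ± 15.3 CPM (SD, n = 4 each) gave a 16.4-fold rise (log2 fold change 4.04, SE 0.34, 95% confidence interval 3.29 to 4.79, edgeR adjusted p = 0.000159).

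Heyl, the third Hey gene, known from vascular smooth muscle and muscle progenitors (chromosome 4, 123233556 to 123249875, plus strand), had 8.53, 9.04, 5.70 and 10.1 CPM in controls. Its values in β-tetO-NICD libraries 1, 2, 4 and 5 were 112, 120, 104 and 56.9 CPM. Here the order of the libraries was different, with library 5 lowest and library 1 among the higher ones. Heyl rose 11.8-fold, from 8.33 ± 1.87 to 98.4 ± 28.4 CPM (SD, n = 4 each; log2 fold change 3.56, SE 0.28, 95% confidence interval 2.94 to 4.18, edgeR adjusted p = 0.000139).

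The 4 calls held with each library left out in turn and in all other fits that tested them. Across these fits, log2 fold changes spanned 2.10 to 2.83 for Hes1, 3.39 to 4.37 for Hey1 and 3.18 to 3.98 for Heyl, with highest adjusted p values of 0.0354, 0.0395 and 0.0118. Fitted values for Hes5 spanned 6.65 to 8.79 (highest adjusted p = 0.0303); requiring 10 counts in every library removed Hes5 from the test and left 3 members called. With the length trend as a covariate, log2 fold changes were 2.23 for Hes1, 7.08 for Hes5, 3.39 for Hey1 and 3.87 for Heyl.

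**Figure D2:**
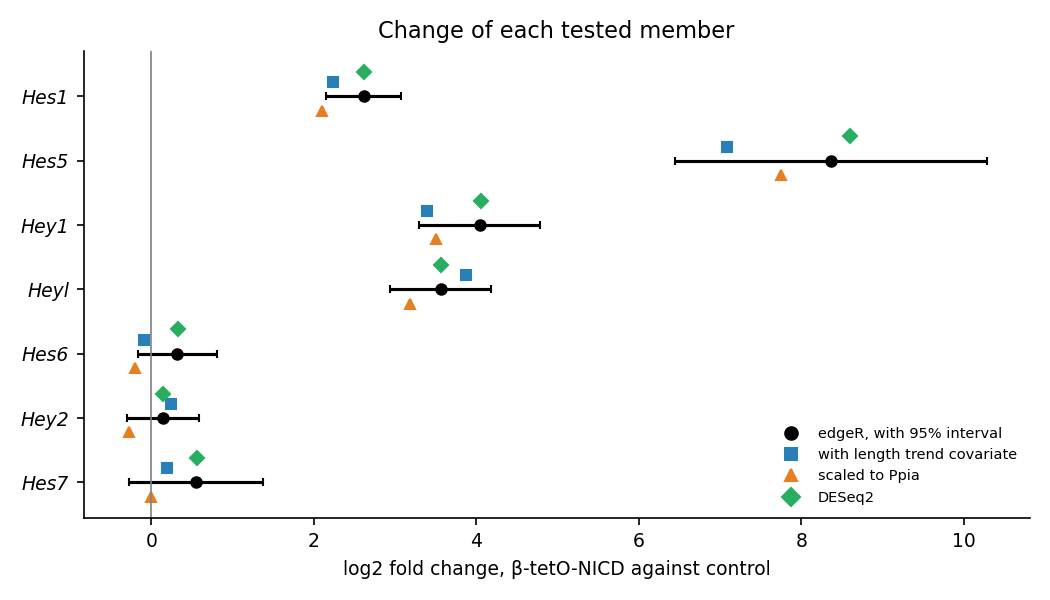
Log2 fold change of each tested member, β-tetO-NICD against control; circles and bars are edgeR estimates with 95% confidence intervals, squares add the length trend as a covariate, triangles scale the counts to Ppia and diamonds are DESeq2 estimates. The 4 members that rose lie above 2 in all 4 fits. Estimates for Hes6, Hey2 and Hes7 run from -0.28 to 0.55, and their edgeR intervals include 0. Ppia scaling lowers the median of all tested genes to -0.43, and the Hes5 estimate rests on at most 1 count per control.

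Hes6, an unusual family member that can counteract Hes1 and is not a typical Notch target (chromosome 1, 91411483 to 91414038, minus strand), was well expressed in control islets, at 33.1, 36.4, 42.1 and 28.5 CPM. β-tetO-NICD libraries 1, 2, 4 and 5 had 30.7, 49.1, 36.5 and 58.5 CPM. The groups overlapped, and library 1 lay below the median control. Means of 35.0 ± 5.74 and 43.7 ± 12.5 CPM (SD, n = 4 each) gave a log2 fold change of 0.32 (SE 0.22, 95% confidence interval -0.17 to 0.80, edgeR adjusted p = 0.319). The interval does not reach a doubling, but the estimate moved with the fit. The log2 fold change was -0.092 with the length trend as a covariate, and it was 0.45 without β-tetO-NICD library 1 (edgeR adjusted p = 0.0979) and 0.55 without both that library and control 3 (edgeR adjusted p = 0.0516).

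Hey2, known for its part in heart and vessel development (chromosome 10, 30832359 to 30842801, minus strand), was the steadiest member. Its control counts of 75, 74, 83 and 100 compare with 89, 83, 107 and 78 under β-tetO-NICD. Mean expression was 3.48 ± 0.41 and 3.83 ± 0.31 CPM (SD, n = 4 each), a log2 fold change of 0.14 (SE 0.20, 95% confidence interval -0.31 to 0.58, edgeR adjusted p = 0.645). Per kilobase (kb) of the longest transcript, the control ranges of Hey2 and Hey1 overlapped (1.23 to 1.59 and 0.780 to 1.43 CPM per kb), whereas in β-tetO-NICD islets Hey1, at 9.41 to 23.5 CPM per kb, lay above Hey2, at 1.39 to 1.66. With the median transcript length, control means were 2.88 CPM per kb for Hey1 and 1.46 for Hey2, so the control comparison depends on the length chosen.

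Hes7, a component of the oscillator that times somite formation (chromosome 11, 69120404 to 69124055, plus strand), gave 11, 12, 11 and 8 counts from controls, against 9, 13, 18 and 20 under β-tetO-NICD. Pooled over each group, 42 and 60 counts gave 0.441 CPM (95% Poisson interval 0.318 to 0.596) and 0.639 CPM (0.488 to 0.822), so the intervals overlap. The log2 fold change was 0.54 (SE 0.37, 95% confidence interval -0.28 to 1.37, edgeR adjusted p = 0.318). Without β-tetO-NICD library 5 it was 0.27. The gene overlaps antisense 9130213A22Rik, which was at 0.55 ± 0.21 and 0.74 ± 0.24 CPM (SD, n = 4 each; edgeR adjusted p = 0.474), and reads of the pair may not be separated.

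Hes2 and Hes3, the latter known from early neural progenitors, lie on chromosome 4 at 152158867 to 152162469 (plus strand) and 152285972 to 152291662 (minus strand). Hes2 gave 1, 0, 0 and 1 counts from controls, against 0, 1, 1 and 0 under β-tetO-NICD. Its upper 95% Poisson limits were 0.0758 and 0.0769 CPM. Hes3 had a single count among controls, in control 3, and 4 among β-tetO-NICD libraries, all in library 4, with upper limits of 0.0585 and 0.109 CPM. A difference between groups was not detectable for either at this depth.

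Levels of different genes were compared per length, as CPM per kb of the longest annotated transcript. In controls, Hes6 led at 22.3 ± 3.65 CPM per kb (SD, n = 4), followed by Hes1 at 4.93 ± 0.70, Heyl at 1.84 ± 0.41, Hey2 at 1.37 ± 0.16, Hey1 at 1.12 ± 0.33, Hes7 at 0.245 ± 0.048 and Hes5 at 0.0251 ± 0.0169. The ranges of Heyl, Hey2 and Hey1 in controls overlapped (1.26 to 2.22, 1.23 to 1.59 and 0.780 to 1.43 CPM per kb), so their order is within the spread at this length. With the median transcript length their control means were 13.4, 1.46 and 2.88 CPM per kb. In β-tetO-NICD islets Hes1 (30.2 ± 7.24), Hes6 (27.8 ± 7.97), Heyl (21.7 ± 6.27), Hey1 (18.5 ± 6.29) and Hes5 (9.52 ± 7.23 CPM per kb) followed each other with overlapping ranges, and Hey2 (1.50 ± 0.12) and Hes7 (0.359 ± 0.138) were below them.

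Summed over the 9 members, the per-length level averaged 31.8 ± 4.13 CPM per kb in controls (27.1 to 36.8), against 110 ± 22.2 in β-tetO-NICD islets (79.7 to 132; SD, n = 4 each). With the longest transcript as the length, Hes6 gave 69.8% ± 2.46 of it in controls and 25.1% ± 2.89 in β-tetO-NICD islets, while Hes1 went from 15.5% ± 0.46 to 27.4% ± 1.67, Hey1 from 3.49% ± 0.73 to 16.5% ± 3.50, Heyl from 5.96% ± 1.96 to 21.1% ± 8.85 and Hes5 from 0.0761% ± 0.0528 to 8.12% ± 5.16 (SD, n = 4 each). These shares restate the changes of the members and were given no test. Order and shares depend on the length chosen. With the median annotated transcript length, which for Heyl is 623 bases instead of 4537, Hes6 led controls with 45.1% of the sum, followed by Hes1 (23.5%) and Heyl (23.4%). With that length Heyl led β-tetO-NICD islets at 158 CPM per kb (46.9%), followed by Hes1 (24.6%), Hey1 (13.9%) and Hes6 (9.62%).

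**Figure D3:**
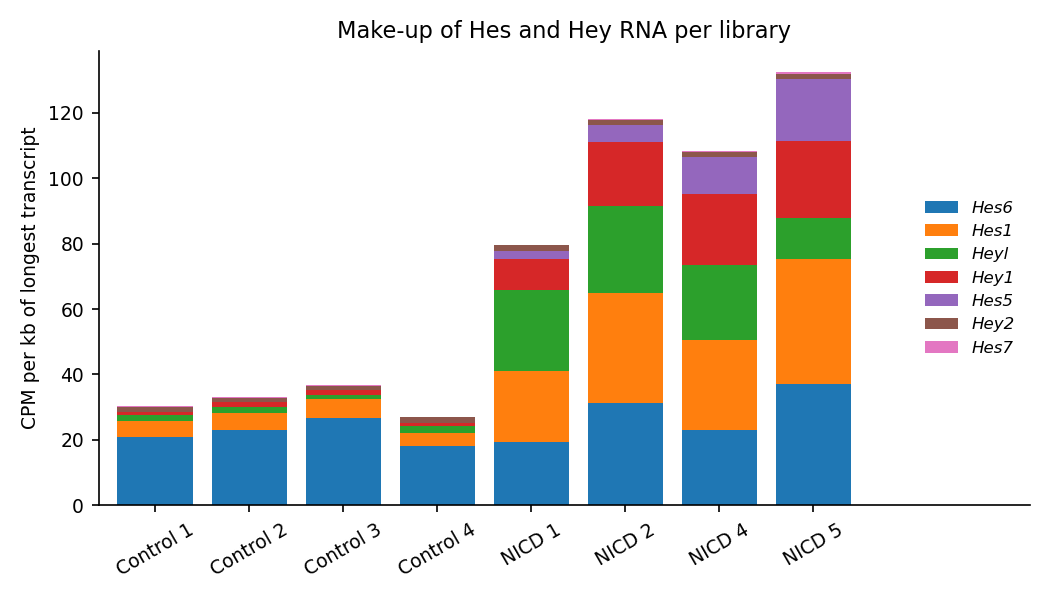
Stacked levels (CPM per kb of the longest annotated transcript) of the 7 tested Hes and Hey genes in each library. Summed over all 9 members, controls reach 27.1 to 36.8 CPM per kb, with 69.8% from Hes6 at this length, and β-tetO-NICD libraries 79.7 to 132, spread over Hes6, Hes1, Heyl, Hey1 and Hes5.

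Ratios of counts within a library do not depend on how libraries are scaled. The ratio of Hey1 to Hes1 stood at 0.266, 0.471, 0.391 and 0.365 for controls 1 to 4, as against 0.721, 0.945, 1.32 and 1.02 for β-tetO-NICD libraries 1, 2, 4 and 5. All 4 β-tetO-NICD ratios exceeded all control ratios, and the mean log2 ratio was 1.42 higher (exact two-sided permutation p = 0.0286, the smallest that 4 against 4 allows; 0.0857 after Benjamini-Hochberg adjustment over 3 ratios). Heyl to Hes1 was 1.20, 1.23, 0.670 and 1.68 against 3.54, 2.42, 2.61 and 1.02, with a mean log2 ratio 0.95 higher (exact permutation p = 0.114, adjusted 0.171). For Heyl to Hey1 the difference in mean log2 ratio was -0.47, with overlapping groups (exact permutation p = 0.543, adjusted 0.543), and leaving out 1 library moved it between -0.85 (without β-tetO-NICD library 1) and -0.087 (without library 5). None of the 3 ratios passed the threshold after adjustment. Such ratios can still depend on transcript length. With the length trend as a covariate, Heyl had the larger log2 fold change (3.87, against 3.39 for Hey1), whereas Hey1 had it in the main fit (4.04, against 3.56).

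The members that rose did not share one order across β-tetO-NICD libraries. Library 1, with the positive length trend, was lowest for Hes5, Hes1 and Hey1, whose longest transcripts are 1.27, 1.47 and 2.42 kb. Library 5 was highest for these 3 genes and lowest for Heyl (4.54 kb) and Notch1 (9.49 kb). Heyl counts per Notch1 count stood at 0.111, 0.0910, 0.0859 and 0.0991 in libraries 1, 2, 4 and 5 (mean 0.0968 ± 0.0110, SD), whereas Hes5 counts per Notch1 count ranged from 0.00335 in library 1 to 0.0421 in library 5. Likewise Hes1 per Notch1 went from 0.0314 to 0.0973 and Hey1 per Notch1 from 0.0226 to 0.0991, each lowest in library 1 and highest in library 5. Hes5 counts per Hes1 count were 0.107, 0.136, 0.356 and 0.432 in libraries 1, 2, 4 and 5. The acinar score, the mean log2 CPM of 12 acinar genes, was 12.2 in library 1 and 10.3 to 11.1 in the other β-tetO-NICD libraries. The part of transcript length and of acinar RNA in these differences between libraries was not tested.

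**Figure D4:**
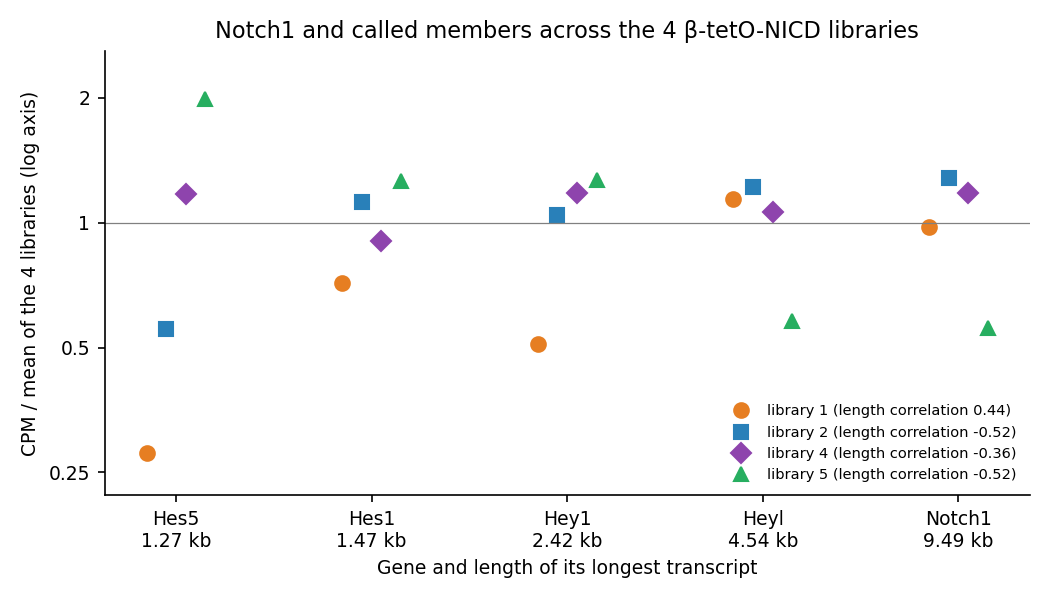
Expression of Hes5, Hes1, Hey1, Heyl and Notch1 in each β-tetO-NICD library as a ratio to the mean of the 4 libraries (log axis), with genes ordered by the length of their longest transcript and the length correlation of each library in the legend. Library 1 (0.44) is lowest and library 5 (-0.52) highest for Hes5, Hes1 and Hey1, and library 5 is lowest for Heyl and Notch1.

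For each tested member, the 3 genes with the most similar profile were found by root mean square distance of log2 CPM over the 8 libraries, centered on control means. Nearest to Hes1 were Gc (distance 0.105), the vitamin D-binding protein that is also an α cell marker, Tst (0.214), a mitochondrial sulfurtransferase, and Cntrob (0.218), a centriole protein. Nearest to Hey1 were Pir (0.153), Mgst1 (0.259), a microsomal glutathione transferase, and Pcp4 (0.353), a calmodulin-binding peptide. Heyl had no close match, with Cyp3a11 (0.331; at most 2 counts in any control), Ccbe1 (0.335) and Brinp1 (0.392). Hes5 had the most distant ones, Rhov (0.551), an atypical small GTPase, Iyd (0.815), an iodotyrosine deiodinase, and Lmntd1 (0.838). All of these genes rose in edgeR's test, which follows from choosing them by likeness to members that rose. Among the 4 members that rose, Hey1 and Heyl were closest to each other (0.776), and 22 other genes were closer to Hey1 than Heyl was. The genes nearest to Hes6 were Psmd7 (0.0642), a proteasome subunit, Zc3h15 (0.0679) and Prdx6 (0.0747). Nearest to Hey2 were Pbld2 (0.0861), Plin3 (0.0886) and Cd300a (0.0960), and nearest to Hes7 were Apoe (0.0959), Nit2 (0.113) and Cox19 (0.115). Over all tested members, the closest pair was Hes6 and Hes7 (0.232), neither of which passed the test. Many other genes were closer to each, as Hes7 ranked 1442 by distance from Hes6 and Hes6 ranked 262 by distance from Hes7.

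The genes beside the members were examined as well. Of the 18 nearest tested genes on either side of the 9 members, edgeR's test called 0, with 8 at an unadjusted p under 0.05, and DESeq2 called 3 and limma-voom 1. Without β-tetO-NICD library 1, edgeR called 8 of the 18. Over all tested genes, 31.6% were at an unadjusted p under 0.05 (the share against which such counts are to be read here and for the lists that follow), DESeq2 called 18.2%, limma-voom called 7.18% and edgeR without that library called 33.1%. Pank4 starts 1752 bases past the end of Hes5 and had a log2 fold change of 0.12 (edgeR adjusted p = 0.577). On the other side of Hes5, Tnfrsf14 had -0.94 (edgeR adjusted p = 0.266). Hes1 lies between Opa1 (-0.54, edgeR adjusted p = 0.125) and Gp5 (0.27, edgeR adjusted p = 0.706). Hey1 lies between Stmn2 (-0.12, edgeR adjusted p = 0.735) and Mrps28 (0.88, edgeR adjusted p = 0.0776), and Heyl between Hpcal4 (-0.77, edgeR adjusted p = 0.148) and Pabpc4 (0.11, edgeR adjusted p = 0.630). Ncoa7, on the lower side of Hey2, came nearest to the threshold at -0.65 (edgeR adjusted p = 0.0504), with Hddc2 at 0.97 on the other side (edgeR adjusted p = 0.0835). Espn and Acot7 flank Hes2, Gpr153 and Icmt flank Hes3, Ilkap and Per2 flank Hes6, and Per1 and Aloxe3 flank Hes7, with log2 fold changes from -0.62 for Per2 to 0.74 for Espn.

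Upstream of the Hes and Hey genes, the receptors other than Notch1 did not pass the test over all 8 libraries. Of 4 Notch receptors 1 rose, and the median log2 fold change of the list was -0.09. None of the 5 tested ligands of 7 was called by edgeR (2 at an unadjusted p under 0.05; DESeq2 called 2 and limma-voom 0). Dlk1, a noncanonical ligand, had the lowest log2 fold change at -2.07 (edgeR adjusted p = 0.0764), from 8.49, 8.53, 14.6 and 2.19 CPM in controls to 4.37, 0.917, 1.99 and 0.756, with overlap at control 4. Dll1, a canonical ligand, had 7.50 ± 1.30 and 13.5 ± 3.38 CPM (SD, n = 4 each) with no overlap (log2 fold change 0.84, edgeR adjusted p = 0.0512). The 9 genes of the NICD complex, which includes Rbpj and the Mastermind genes, also had 0 calls by edgeR, DESeq2 and limma-voom (1 at an unadjusted p under 0.05). The largest differences there were -0.86 for the acetyltransferase Ep300 (edgeR adjusted p = 0.202) and -0.57 for Maml3 (edgeR adjusted p = 0.174). These counts depend on β-tetO-NICD library 1, without which 33.1% of all tested genes were called. In that fit Notch3, Dlk1, Ep300, Kat2b and Maml3 were called lower and Dll1 higher. With Notch1, that makes 2 receptors, 2 ligands and 3 genes of the complex. Without library 5 (4.66% of all tested genes called) the ligands had 1 call.

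Among corepressors that RBPJ binds, 1 of 9 tested genes of 10 rose. This was L3mbtl3, a chromatin reader that joins RBPJ at repressed Notch targets, at 4.20 ± 0.97 and 10.8 ± 0.71 CPM (SD, n = 4 each), a log2 fold change of 1.36 (SE 0.20, edgeR adjusted p = 0.00512). The median of this list was -0.29. Groucho corepressors, the partners of Hes proteins, had 0 of 6 tested genes of 8 called by edgeR (1 at an unadjusted p under 0.05; DESeq2 called 1 and limma-voom 0), with Tle1 at 0.50 (edgeR adjusted p = 0.0889) and Aes at 0.36 (edgeR adjusted p = 0.240). The remaining bHLH-Orange genes did not follow the Hes and Hey genes that rose. Bhlhe40 and Bhlhe41, repressors of the circadian clock, had log2 fold changes of -0.51 (edgeR adjusted p = 0.102) and -0.49 (edgeR adjusted p = 0.0712), neither called by edgeR or limma-voom but both at an unadjusted p under 0.05, while DESeq2 called 1 of the pair. Helt had 0 counts in all 8 libraries. Without β-tetO-NICD library 1, 4 RBPJ corepressors were called (L3mbtl3 higher, Kdm5a, Ncor1 and Spen lower), 2 Groucho genes (Tle1 and Tle3) and both Bhlhe40 and Bhlhe41, which were lower.

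Nrarp, a Notch target that feeds back on the NICD complex, was the 1 of 7 tested genes among 9 other Notch targets to rise, from 3.23 ± 0.54 to 33.2 ± 8.37 CPM (SD, n = 4 each; log2 fold change 3.36, SE 0.24, edgeR adjusted p = 8.52e-05). Its fold change lay between those of Hes1 and Heyl. The median of that list was 0.36. Of 7 tested Id and E protein genes, 3 rose, all of them Id genes, which encode dominant negative partners of bHLH proteins without a DNA-binding region. Id2 rose from 10.03 ± 0.55 to 36.3 ± 10.3 CPM (SD, n = 4 each; log2 fold change 1.86, edgeR adjusted p = 0.00159). Id1 (1.14, edgeR adjusted p = 0.0458) and Id3 (0.84, edgeR adjusted p = 0.0417) were near the threshold and kept it in 1 of the 8 fits that left out a library, the fit without β-tetO-NICD library 1. That fit also called Tcf12 and Myc lower.

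Possible targets of Hes repressors were examined as 2 lists. The first is a family list that holds Neurog3 and was not limited to known Hes targets, and the second holds other genes repressed by Hes1. Of 14 proneural and endocrine bHLH genes, 6 were tested and edgeR called 1, which rose (DESeq2 called 3 and limma-voom 1). Neurog3, the endocrine commitment factor that Hes1 represses in the embryo, stood at 2.12, 4.64, 4.43 and 3.21 CPM in the control libraries, as against 13.0, 11.3, 11.6 and 11.7 CPM in libraries 1, 2, 4 and 5 of the β-tetO-NICD group. All β-tetO-NICD values lay within a narrow band above the controls, unlike those of Hes1 or Hes5 (log2 fold change 1.72, SE 0.25, edgeR adjusted p = 0.00438). Hes1 and Neurog3 were thus both higher in the same islets. Neurog1, Neurog2, Neurod2 and Atoh1 had 0 counts in all libraries. Of 7 other genes repressed by Hes1, all tested, 1 fell. This was Pparg, a nuclear receptor of lipid metabolism, at 8.41 ± 2.57 and 2.88 ± 0.74 CPM (SD, n = 4 each; log2 fold change -1.54, SE 0.28, edgeR adjusted p = 0.0134). The medians of the 2 lists were 0.33 and 0.01. Without β-tetO-NICD library 1 the 2 lists had 3 and 2 calls, with Bhlha15 and Neurod1 called lower and Cdkn1c higher. Without control 4 (2.92% of all tested genes called) the first list had 2.

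**Figure D5:**
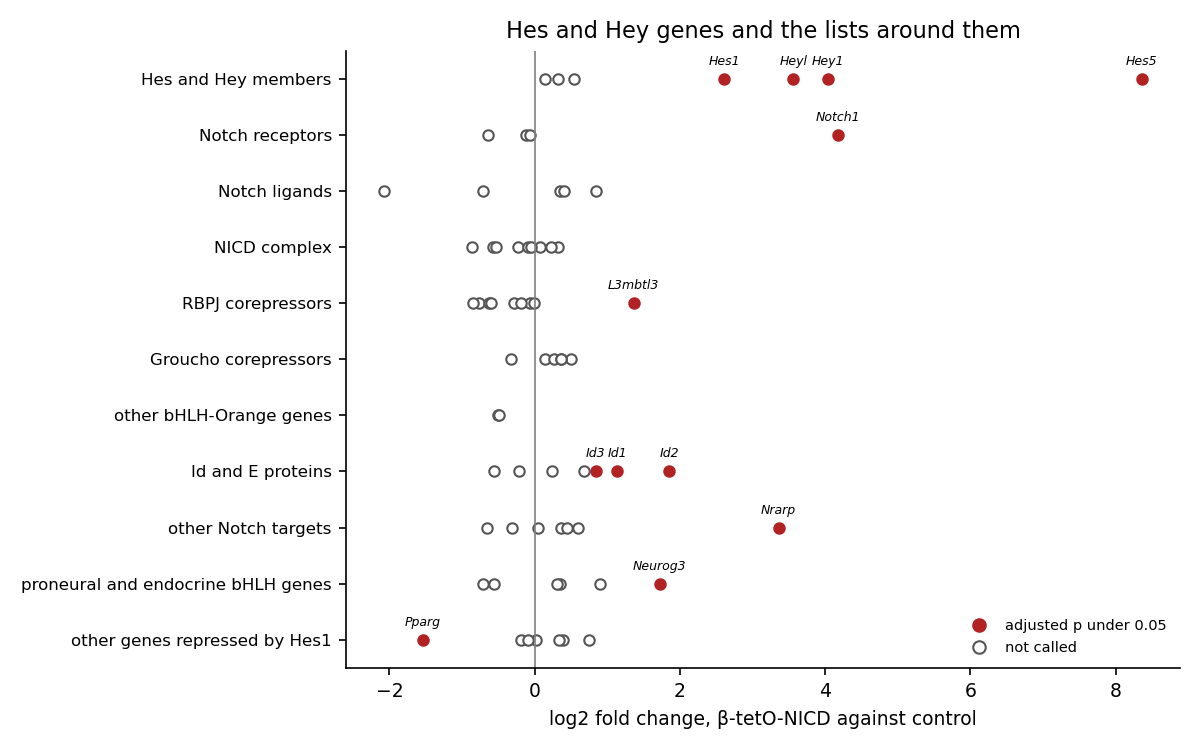
Log2 fold change (β-tetO-NICD against control) of each tested Hes and Hey gene and of the tested genes in 10 lists around them; filled points passed edgeR's test at an adjusted p under 0.05 and are named. Hes1, Hes5, Hey1 and Heyl stand with Notch1 (4.18) and Nrarp (3.36) far to the right, and Pparg (-1.54) is the called gene on the left.

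Some marker genes of islet cell types also differed between the groups. Of 10 β cell markers 3 fell (Ucn3, Slc2a2 and G6pc2), and their summed level was 157175 to 197769 CPM in controls and 72403 to 172163 CPM in β-tetO-NICD islets. Of 6 α cell markers 3 rose (Irx1, Irx2 and Gc), with sums of 12124 to 43249 and 55905 to 70959 CPM. Of 4 δ cell markers Hhex rose (sums 2439 to 6588 and 5087 to 14146 CPM), and of 8 macrophage markers C1qa rose (149 to 193 and 214 to 309 CPM). In the β, α, δ and macrophage lists, 4, 6, 3 and 3 markers were at an unadjusted p under 0.05. For the same lists DESeq2 called 4, 5, 3 and 1 markers and limma-voom 3, 5, 1 and 1. The log2 fold changes of the 6 α markers ran from 0.52 to 2.62. Vessels express Hey genes, and their markers had 0 calls by edgeR, for 10 endothelial genes (524 to 842 and 690 to 809 CPM; 4 at an unadjusted p under 0.05, 0 by DESeq2 and limma-voom) and for 9 mural genes (145 to 252 and 175 to 231 CPM; 2 at an unadjusted p under 0.05, 1 by DESeq2, 0 by limma-voom). Duct, acinar, Schwann and fibroblast lists also had 0 calls by edgeR and limma-voom, with 3, 0, 0 and 0 genes at an unadjusted p under 0.05 and 3, 0, 0 and 0 called by DESeq2. Their summed ranges were 228 to 321 and 246 to 469 CPM for duct, 40987 to 81531 and 34362 to 123587 CPM for acinar, 24.5 to 29.4 and 21.0 to 33.5 CPM for Schwann and 116 to 621 and 294 to 367 CPM for fibroblast markers, and no marker of any list was at 0 in all libraries. Marker counts moved with single libraries. Without β-tetO-NICD library 1 (33.1% of all tested genes called) there were 3 endothelial calls (Emcn, Esam and Plvap), 1 mural call (Kcnj8), 3 δ calls and 5 α calls, all higher, 4 β calls, all lower, 3 duct calls (2 higher, 1 lower), 4 macrophage calls (2 higher, 2 lower) and 0 calls for acinar, Schwann and fibroblast markers. Without control 3 (5.86% of all tested genes called) there were 5 α and 3 δ calls. Without control 2 (3.37%) there were 2 fibroblast calls and 1 duct call. Over the remaining fits that left out 1 library (2.45% to 4.66%), α calls ran from 1 to 3 and β calls from 1 to 2, with 0 δ and 0 macrophage calls. The part of cell composition in the changes of the Hes and Hey genes was not tested.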

How the data were processed

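Islet RNA of 4 controls and 4 β-tetO-NICD mice was sequenced from stranded poly(A) libraries. The authors used kallisto to pseudoalign them against GRCm38 transcripts and deposited whole-number counts per gene symbol, not normalized; the kallisto version, annotation and strand setting are not given in the sources used here. A second deposited table holds the authors' own limma fold changes and p values and was not used. Columns were matched to samples by name. No pair of libraries in a group agreed within sampling noise (chi-square per gene at least 31.5), so each counted once.

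Genes reaching 10 counts in 4 or more of the 8 libraries were kept. Counts were normalized by TMM and compared with edgeR 4.0.16 (glmQLFit and glmQLFTest, no covariate, R 4.3.3) on the whole table. Adjusted p values are Benjamini-Hochberg over all tested genes, with a threshold of 0.05. The study itself used limma. The p values measure the spread between these mice. Log2 CPM used a prior count of 2. Bounds against groups near 0 used a floor of 3 counts per library. Lengths and coordinates came from GENCODE M21, which held 96.3% of symbols.

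Members and gene lists were chosen with earlier results of these data known. Called marker genes are also named; a further marker was left out of its list and is not reported here. Named genes were all members; in each Notch pathway list the genes called or, with none, the 2 with the largest absolute log2 fold change; the 3 genes with the nearest profile; and the nearest tested neighbours. Alternatives were RLE and upper-quartile normalization, removal of the 10 most abundant genes, other count filters, DESeq2 1.42.0, limma-voom (limma 3.58.1), covariates (acinar score, Eif2s3y, length trend), a replicate block and leaving out each library (10 counts in 3 or more libraries). Chosen after seeing the data were leaving out control 3 with β-tetO-NICD library 1, scaling to Ppia, the 5 libraries without Eif2s3y counts, the 4 libraries of the block without it, and leave-one-out counts for marker lists and neighbours. The main edgeR fit and the limma-voom and DESeq2 fits were first tested on simulated data, and the other alternatives and the permutation test were not.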

Additional observations from a re-analysis of the deposited data

Results flagged for a closer look

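In Hes5 expression among controls, control 4 stood apart from the other 3, with a gap to its nearest neighbour of 0.858 of the range of the group. The values behind it are 0 counts in control 4 and 1 count in each of controls 1, 2 and 3, so the gap is a single read. Among 16 groups examined it was the 1 to pass, and chance alone flags about 1 in 20.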

How the results depend on the processing

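Hes1, Hey1 and Heyl passed the threshold in all 24 alternatives and Hes5 in the 23 that tested it, so the number of members called was 4 in every alternative except the filter of 10 counts in every library, where it was 3. Leaving out each library gave log2 fold changes of 2.48 to 2.74 for Hes1, 7.80 to 8.67 for Hes5, 3.91 to 4.26 for Hey1 and 3.42 to 3.75 for Heyl.

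Members that did not pass changed sign in some fits, in part with the scale of all genes. Hes6 was at -0.092 with the length trend as a covariate. Scaling to Ppia, at 268 ± 34.3 CPM in controls against 392 ± 136 under β-tetO-NICD (SD, n = 4 each), shifted the median log2 fold change of all genes to -0.43 and with it put Hes6 at -0.21, Hes7 at -0.010 and Hey2 at -0.28.

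The background moved far more than the members. From 1020 tested genes called, the number went to 2739 with DESeq2, 1882 with the acinar score, 428 with the length trend, 161 with Ppia scaling and 116 over the 5 libraries without Eif2s3y counts. Leaving out 1 library gave 373 (without β-tetO-NICD library 2) to 5065 (without β-tetO-NICD library 1), with 508, 514 and 446 without controls 1, 2 and 4 and 433 without library 4, and leaving out both control 3 and library 1 gave 6008. The share of calls that rose was 62% in the main comparison, 49.9% with the acinar score, 49.0% without library 1, 49.6% without control 3 and library 1, 71.6% without library 2, 72.5% without library 4, 80.4% over the block's 4 libraries without a block and 73.3% over the 5 libraries. The cause was not tested.

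Replicate numbers are settled for both groups in libraries 1 and 2 alone. Deviations of same-numbered libraries correlated at 0.27 and -0.09, so the numbers were not read as pairs. With the replicate block on these 4 libraries 610 genes were called, against 51 without a block on the same libraries; Hes7 was at -0.030 and -0.021, and all 4 members stayed called in both.

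Of 24 alternatives, Id1 lost its call in 14, Id3 in 13, L3mbtl3 and Pparg in 4 each, Neurog3 in 3 and Id2 in 2, while Nrarp kept it in all 24. Over the 5 libraries without Eif2s3y counts, where L3mbtl3, Neurog3, Id2 and Pparg lost theirs, they were at 1.34, 1.85, 1.85 and -1.59, and Id1 and Id3, also lost there, at 0.88 and 0.74. Hes7 had 8 to 20 counts per library and moved between 0.27 and 0.69 with 1 library left out, and Hes2 and Hes3 had at most 4 counts in any library. The part of depth in these results was not tested.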
